A study of Homo sapiens with 6 samples.

Results

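The transcripts described here are those of 10 subunits of Polycomb repressive complex 2 (PRC2): the core subunits EZH1, EZH2, SUZ12, EED and RBBP7, and the accessory subunits PHF1, MTF2, PHF19, JARID2 and AEBP2. They were taken by symbol from the 26485 gene symbols of the count files, and all 10 were found and passed the filter on low counts. The RNA came from AF22, an established line of human neural stem cells derived from induced pluripotent cells. The 3 control libraries are labelled shControl (control short hairpin RNA) with a WT genotype, and the 3 knockdown libraries carry the label BMI1/COMMD3-BMI1 knockdown. The hairpin sequences, the time after their delivery and any separate cultures behind the library numbers were not given in the sources used here. All 6 libraries come from this single cell line, and p-values measure the spread between libraries, which may be technical.

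PRC2 places methyl groups on lysine 27 of histone H3, a mark of silenced genes. EZH2 or its paralog EZH1 carries the catalytic SET domain, which works only together with SUZ12 and EED, and the histone-binding protein RBBP7 or its paralog RBBP4 completes the core. Accessory subunits sort the core into forms: PHF1, MTF2 or PHF19, the Polycomb-like proteins, define PRC2.1, and JARID2 with AEBP2 defines PRC2.2. BMI1, named with COMMD3-BMI1 in the knockdown label, belongs to the other Polycomb complex, PRC1, whose canonical forms bind the mark that PRC2 makes. EZH2 is known as the form of dividing progenitors, the neural ones included, and EZH1 as the form of resting and differentiated cells.

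BMI1 itself was at 85.1, 90.0 and 87.4 CPM (read counts scaled to a common library size) in control libraries 1, 2 and 3, and at 39.9, 21.5 and 26.2 CPM in knockdown libraries 1, 2 and 3. Every knockdown library was thus below every control library, and the knockdown mean was 33.4% of the control mean. In edgeR's quasi-likelihood test BMI1 had an adjusted p of 0.163 unpaired and 0.00836 with libraries paired by number. Library totals ran from 4962745 to 9640349 counts, and single members had between 139 and 1683 counts in a library. Knockdown library 2 stood apart, scoring 40.2 on a first principal component that held 49.2% of the variance, with the other 5 libraries between -25.5 and 11.5. All 12 neural stem cell markers passed the filter, among them SOX2 and NES, whereas the neuronal markers ELAVL4 and RBFOX3 and the pluripotency markers NANOG and TDGF1 had 0 counts in all 6 libraries. Other markers of those lists were detected in control, among them the neuronal MAP2 at 489.1 CPM and the pluripotency genes LIN28A and POU5F1 at 267.7 and 76.1 CPM. The neural stem cell markers summed to 4009 to 4220 CPM in control, and to 3492 to 4519 CPM after knockdown. VIM (mean 1899 CPM in control, 2133 CPM after knockdown) and NES (1032 and 869 CPM) made up most of these sums.

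In control cells every member was well detected, at more than 10 CPM in every library. Levels were compared between genes after division by the length of the principal transcript (GENCODE 29). On this scale RBBP7 was highest, at 58.7 ± 5.77 CPM per kilobase (mean ± SD, n = 3, as for the values that follow), and EZH2 came next, at 46.4 ± 3.34. JARID2 (30.9 ± 1.71) and PHF1 (27.7 ± 3.35) followed and overlapped each other. EED (22.04 ± 1.41), SUZ12 (20.2 ± 1.46) and MTF2 (20.1 ± 1.10) formed a group whose libraries overlapped from each gene to the next. PHF19 (13.0 ± 1.89) and AEBP2 (11.96 ± 2.00) also overlapped each other, and EZH1 was lowest, at 6.29 ± 0.734 CPM per kilobase. The order depends on the length used. With the merged length of all annotated exons, a setting added after the data were seen, JARID2 was highest (29.6 CPM per kilobase), ahead of EZH2 (27.1) and RBBP7 (18.5). EED moved from place 5 to place 9, at 6.98 CPM per kilobase, while EZH2 stayed at place 2 and EZH1 at place 10. EZH2 therefore exceeded EZH1 per kilobase 7.38-fold by principal transcripts and 6.51-fold by merged exons in control cells.

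**Figure D1:**
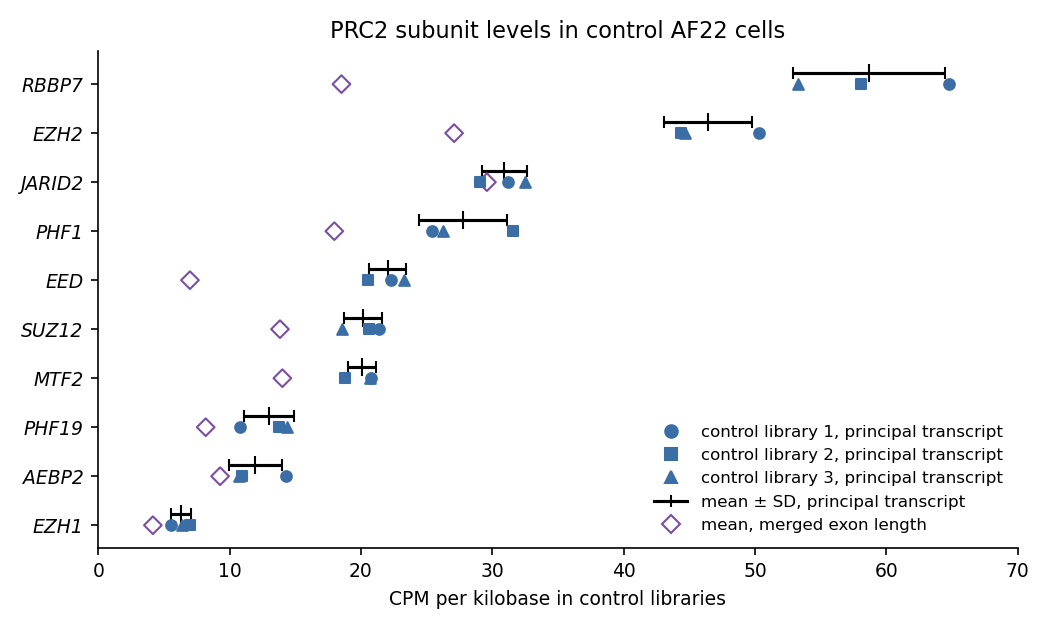
Level of each PRC2 subunit transcript in the 3 control libraries, in CPM per kilobase (horizontal axis); filled symbols are libraries and the bar is mean ± SD by principal transcript length, and open diamonds are means by merged exon length. EZH2 lies far to the right of EZH1 by either length, and EED and RBBP7 depend most on the length used.

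Replicate scatter differed between members. The coefficient of variation (SD over mean) of control CPM was 5.48% for MTF2 and 5.53% for JARID2, where counting error alone gives 4.39% and 2.99%. It was largest for AEBP2 (16.8%) and PHF19 (14.6%), where counting error gives 5.14% and 5.35%. In the knockdown libraries EZH2 had the largest coefficient, 27.6%, against 7.18% in control, and RBBP7 and EZH1 had 20.3% and 21.0%. The larger knockdown scatter of these 3 genes comes with the position of knockdown library 2, which was lowest for EZH2 and RBBP7 and highest for EZH1.

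EZH2 (chr7:148807383-148884321, minus strand, GRCh38 with GENCODE 29, as for the positions that follow) had the largest change of the 10. It was at 132.7, 117.0 and 117.9 CPM in control libraries 1, 2 and 3, and at 113.7, 65.4 and 85.2 CPM in knockdown libraries 1, 2 and 3. No knockdown library reached the lowest control library, although knockdown library 1 came close to it. Within library numbers the knockdown level was 85.7%, 55.9% and 72.3% of the control level. The log2 fold change was -0.48 (SE 0.178, 95% interval -0.89 to -0.08) in edgeR's unpaired quasi-likelihood test, with an adjusted p of 0.288. With the library number as a block (the paired fit) it was -0.51 (SE 0.106, 95% interval -0.75 to -0.27), and the edgeR adjusted p was 0.0288. EZH2 thus fell in the paired fit to 0.703 of the control level (95% interval 0.595 to 0.831), while the unpaired test made no call. Leaving out knockdown library 1, where BMI1 fell least, gave a call without the block too (log2 fold change -0.69, edgeR adjusted p 0.0259). That fit called 665 of 13174 genes. The library left out had the EZH2 level nearest control, so leaving it out could only enlarge the difference. Leaving out any other library gave unpaired edgeR adjusted p between 0.423 and 0.604 for EZH2. RNA came from whole cultures, so fewer EZH2-expressing cells and less EZH2 RNA per cell cannot be told apart.

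EZH1 (chr17:42700275-42745049, minus strand), the alternative catalytic subunit, was not called. It was at 25.5, 32.3 and 29.4 CPM in control and at 29.2, 40.7 and 28.4 CPM in knockdown libraries, so that the groups overlapped. The paired log2 fold change was 0.16 (SE 0.108, 95% interval -0.09 to 0.40, edgeR adjusted p 0.371), and without knockdown library 2 the unpaired value was -0.021. The log2 ratio of EZH2 to EZH1 CPM within a library was 2.36, 1.85 and 1.99 in control and 1.95, 0.68 and 1.58 in knockdown libraries. Its mean went from 2.07 ± 0.266 to 1.40 ± 0.653 (SD, n = 3 each), a difference of -0.66 (exact permutation test, two-sided p = 0.2, where 3 against 3 libraries cannot go below 0.1). The ratio was lower in knockdown in all 3 pairs, by -0.41, -1.17 and -0.42 on the log2 scale, and the groups overlapped by knockdown library 1. Per kilobase, EZH2 made up 90.1%, 86.4% and 87.5% of the EZH1 and EZH2 transcripts in control and 87.2%, 73.8% and 84.0% in knockdown libraries.

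**Figure D2:**
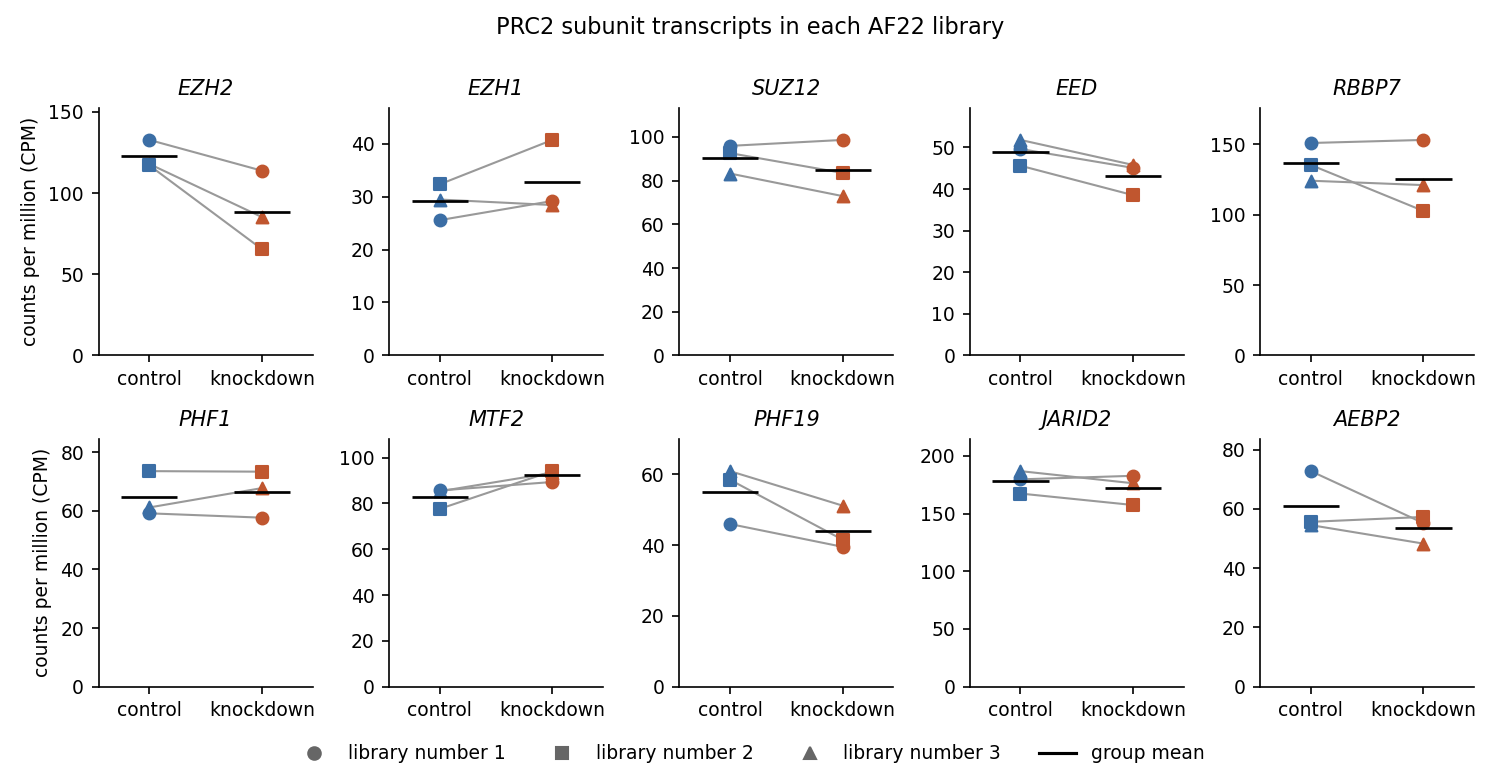
Level in CPM (vertical axes, from 0) of the 10 PRC2 subunit transcripts in control (blue) and knockdown (orange) libraries; symbols are library numbers, lines join libraries with the same number and black bars are group means. All EZH2 lines run down, from 117.0 to 132.7 CPM in control to 65.4 to 113.7 CPM in knockdown, and most other panels show overlapping groups.

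Promoter windows, from 250 bases before to 50 bases after each RefSeq start site, were searched for 4 spellings of the E2F site, the element bound by the E2F factors of S phase genes: TTTCCCGC, TTTCGCGC, TTTGCCGC and TTTGGCGC, on both strands. The RefSeq table held windows for all 10 members, 14 in all since some have 2 start sites. One of the spellings was present in 6 of the 14 windows (42.9%), those of EZH2, PHF19, EZH1, SUZ12, MTF2 and AEBP2, compared with 3.31% of all 35116 windows. Over windows of genes with at least 10 counts in every library the share was 4.93%. These are letter matches and do not show that a factor binds. They were present in the members with the lowest changes (EZH2 and PHF19) and also in EZH1 and MTF2, whose estimates were above 0. EZH2 and PHF19 each have another window, at a different start site, with 0 of these spellings. The matching windows of EZH2, PHF19 and EZH1 are given 5′ to 3′ on the strand of the gene, with the match in capitals (GRCh38.p14, RefSeq). EZH2 lies at chr7:148884242-148884541, PHF19 at chr9:120877139-120877438 and EZH1 at chr17:42744991-42745290, all on the minus strand. In EZH2 the match TTTGGCGC begins at base 2 of the transcript, and in PHF19 and EZH1 it is on the opposite strand, its first base in the window at -152 and -115 from the start.
EZH2: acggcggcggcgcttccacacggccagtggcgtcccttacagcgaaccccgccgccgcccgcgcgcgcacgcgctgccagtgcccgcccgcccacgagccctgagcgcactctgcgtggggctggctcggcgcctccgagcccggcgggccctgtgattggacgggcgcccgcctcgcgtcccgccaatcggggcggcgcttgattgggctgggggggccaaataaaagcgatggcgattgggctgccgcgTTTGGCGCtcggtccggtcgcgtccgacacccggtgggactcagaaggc
PHF19: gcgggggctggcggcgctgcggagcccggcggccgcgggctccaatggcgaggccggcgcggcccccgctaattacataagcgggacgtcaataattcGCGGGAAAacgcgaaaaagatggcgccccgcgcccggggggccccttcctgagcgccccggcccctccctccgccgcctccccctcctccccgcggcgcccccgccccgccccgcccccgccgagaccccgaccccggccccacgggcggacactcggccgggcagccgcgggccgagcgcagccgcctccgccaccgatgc
EZH1: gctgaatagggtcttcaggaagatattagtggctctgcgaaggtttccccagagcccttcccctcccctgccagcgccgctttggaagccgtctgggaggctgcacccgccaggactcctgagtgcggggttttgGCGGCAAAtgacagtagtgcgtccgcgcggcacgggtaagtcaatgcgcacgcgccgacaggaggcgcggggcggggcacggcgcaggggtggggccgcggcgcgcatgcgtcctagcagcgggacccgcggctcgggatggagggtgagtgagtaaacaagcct

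The EZH2 window printed above also held 4 copies of CCAAT on either strand, the letters bound by the factor NF-Y, at -94, -66, -47 and -13. The other EZH2 window held 0. CCAAT was found in 57.1% of the 14 member windows and in 34.6% of all windows.

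The other core subunits moved less than EZH2. SUZ12 (chr17:31937018-32001045, plus strand), which holds the core together and docks the accessory proteins, was at 95.9, 92.6 and 83.2 CPM in control and at 98.6, 83.5 and 72.9 CPM in knockdown libraries. Its groups overlapped, and the paired log2 fold change was -0.10 (SE 0.0736, edgeR adjusted p 0.390). The interval allows a level of 0.829 to 1.05 of control. Reads of SUZ12 and its near-identical pseudogene SUZ12P1, which had 49 to 115 counts a library, could have been split between them. EED (chr11:86244544-86278813, plus strand), which binds the finished H3K27 mark and stimulates the enzyme, was at 49.6, 45.6 and 51.8 CPM in control and at 45.1, 38.5 and 45.8 CPM in knockdown libraries. EED was lower in each pair, by -0.14, -0.24 and -0.18, with a paired estimate of -0.19 (95% interval -0.37 to -0.004) and an edgeR adjusted p of 0.167. RBBP7 (chrX:16839283-16870414, minus strand), a WD40 chaperone also found in other histone complexes, was at 151.0, 135.4 and 124.2 CPM in control and at 153.2, 102.7 and 121.1 CPM in knockdown libraries. Its log2 differences were 0.02, -0.40 and -0.04, so that only library number 2 differed by more than 0.1, and the paired edgeR adjusted p was 0.337. RBBP7 shares 179 exon bases with TXLNG on the opposite strand, and whether counting used strand was not given in the sources used here.

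The fall of EZH2 was thus larger than the differences of its core partners in each library number. The log2 difference of EZH2 minus that of SUZ12 was -0.26, -0.69 and -0.28, and minus that of EED it was -0.08, -0.59 and -0.29. Against RBBP7 it was -0.24, -0.44 and -0.43. These comparisons were chosen after the values were seen and are given without a test.

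Among the Polycomb-like proteins of PRC2.1, whose Tudor and PHD domains help to bring the complex to chromatin, each gene showed its own pattern. PHF19 (chr9:120855652-120894896, minus strand) was at 45.9, 58.4 and 60.9 CPM in control and at 39.5, 41.5 and 51.1 CPM in knockdown libraries. It was lower within every library number, by -0.22, -0.49 and -0.25, but the groups overlapped because control library 1 was itself low. The paired log2 fold change was -0.32 (SE 0.0884, 95% interval -0.53 to -0.12) with an edgeR adjusted p of 0.0521, just outside the threshold of 0.05. Of the 10 other paired settings, 5 put PHF19 inside the threshold, with adjusted p between 0.0247 and 0.0491, and paired DESeq2 gave 0.291. MTF2 (chr1:93079235-93139081, plus strand) was at 85.6, 77.6 and 85.3 CPM in control and at 89.3, 94.1 and 93.3 CPM in knockdown libraries. Every knockdown library of MTF2 was above every control library, but the differences were small (0.06, 0.28 and 0.13), and the paired estimate of 0.16 (95% interval -0.006 to 0.32) had an edgeR adjusted p of 0.188. PHF1 (chr6:33410399-33416453, plus strand) was at 59.2, 73.6 and 61.2 CPM in control and at 57.7, 73.4 and 67.8 CPM in knockdown libraries. The libraries of PHF1 overlapped throughout, with a paired estimate of 0.04 (95% interval -0.13 to 0.21, edgeR adjusted p 0.765). PHF1 shares 12 exon bases with CUTA on the opposite strand.

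Per kilobase, the 3 Polycomb-like transcripts together came to 57.0, 64.2 and 61.3 CPM in control and 55.7, 64.1 and 63.8 CPM in knockdown libraries, which overlapped. Within that sum, PHF19 made up 19.0%, 21.5% and 23.4% in control and 16.7%, 15.3% and 18.9% in knockdown libraries. The PHF19 shares of the groups were separated by a small gap, and no test was made. The sum of the PRC2.2 transcripts JARID2 and AEBP2 was 45.5, 40.0 and 43.2 CPM per kilobase in control libraries 1, 2 and 3, and 42.6, 38.6 and 40.1 after knockdown.

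In PRC2.2, JARID2 helps to recruit and stimulate the enzyme and AEBP2 is a zinc finger protein that stabilises the complex. JARID2 (chr6:15246296-15522040, plus strand) was at 179.7, 167.4 and 186.8 CPM in control and at 182.8, 157.5 and 176.3 CPM in knockdown libraries. Its paired log2 fold change was -0.05 (SE 0.0628, edgeR adjusted p 0.637), and the interval allows 0.875 to 1.07 of the control level, the narrowest interval of the 10 members on the log2 scale. AEBP2 (chr12:19404045-19720801, plus strand) was at 72.8, 55.6 and 54.5 CPM in control and at 55.2, 57.3 and 48.3 CPM in knockdown libraries. Control library 1 was the high library of AEBP2 and the groups overlapped, and its log2 differences were -0.40, 0.04 and -0.17 (paired estimate -0.17, edgeR adjusted p 0.273). Without pair 2 the paired edgeR fit called AEBP2 (log2 fold change -0.28, adjusted p 0.0115). That fit called 17.9% of all genes, from fewer libraries to measure the spread.

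**Figure D3:**
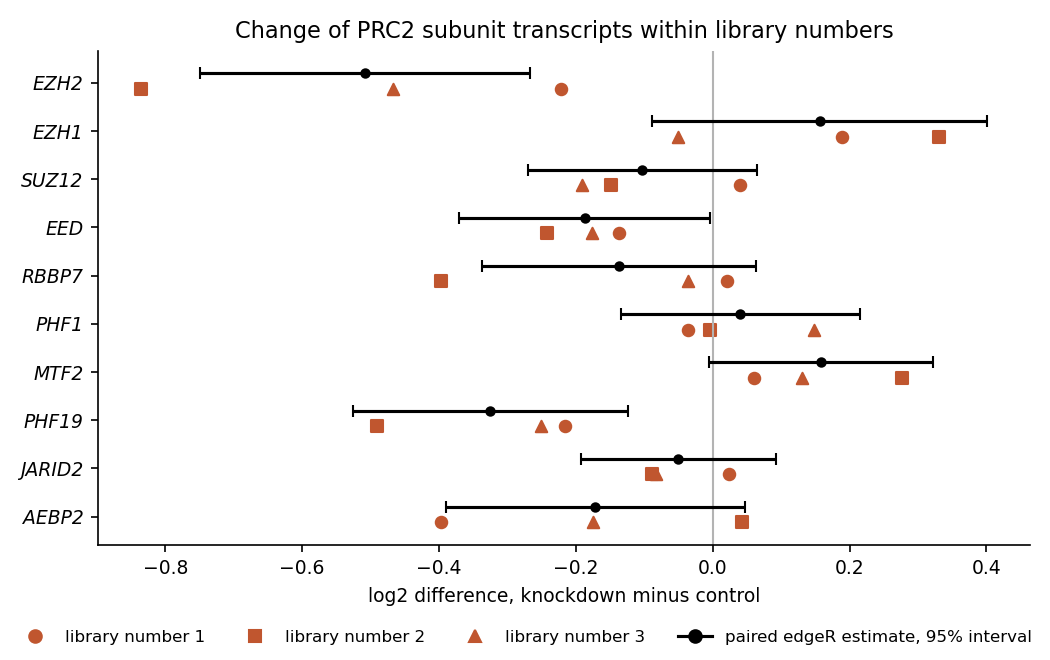
Log2 difference of knockdown minus control CPM (horizontal axis) for each PRC2 subunit: orange symbols are library numbers, and black points with bars are paired edgeR estimates with 95% intervals. The interval of EZH2 runs from -0.75 to -0.27 and that of PHF19 from -0.53 to -0.12, and the intervals of EZH1, SUZ12, RBBP7, PHF1, MTF2, JARID2 and AEBP2 include 0.

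Over the 10 members, the unpaired edgeR test called 0, as it did for all 12937 genes tested (0.00%), with 1 member and 1869 genes at an unadjusted p under 0.05. Unpaired DESeq2 called 142 genes and limma voom 0, and neither called a member. The paired edgeR fit called 1 of 10 members lower, EZH2, beside 5.39% of all genes, and 0 of 10 higher, beside 4.63%. With 1296 of 12937 genes called in all, 1 call among 10 members is near the background and does not set the subunits apart from other genes. At an unadjusted p under 0.05 the paired fit had 3 members (EZH2, PHF19 and EED) and 3713 genes. The groups did not overlap in 2 of 10 members, EZH2 and MTF2, and in 20.5% of all genes. The median log2 fold change of the members was -0.12 in the paired fit, beside -0.004 over all genes, and 7 members were below 0 and 3 above. Within library numbers the member medians were -0.01, -0.12 and -0.13, with 5, 7 and 8 of 10 members lower in knockdown. Of all tested genes, 50.1%, 51.2% and 50.1% were lower in library numbers 1, 2 and 3, and no test was made of the member counts. Without pair 2, the paired edgeR fit called 3 members lower (EZH2, PHF19 and AEBP2). Of 12846 genes tested there, 1098 were called lower, and 17.9% were called in either direction. The EZH2 estimate was then -0.36 (SE 0.0643, adjusted p 9.9e-07), from fewer libraries to measure the spread.

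Most genes of the dividing cell also fell in the paired fit. EZH2 transcription is known to rise in S phase under E2F control, and lists of 43 genes of G1/S and S phase and 54 genes of G2/M were therefore set beside it. In the paired edgeR fit 34 of 43 genes in the first list and 43 of 54 in the G2/M list fell and 0 rose, beside 5.39% of all genes lower. The claspin gene CLSPN (-0.96) and the replication gene GINS2 (-0.70) were among the former, and the proliferation marker MKI67 (-0.88) and CDCA3 (-1.15) among the latter, with edgeR adjusted p between 0.0222 and 0.0236. The median paired log2 fold changes were -0.59 and -0.64, beside -0.51 for EZH2. By library number the median over both lists was -0.26, -1.05 and -0.52, and EZH2 was at -0.22, -0.84 and -0.47. EZH2 was thus within the range of these 97 genes in each pair, and 60, 69 and 58 of them lay below it. The other members lay above EZH2 in each library number, except AEBP2 (-0.40) in library number 1. Over all 10 members, EZH2 included, the medians were -0.01, -0.12 and -0.13. With pair 2 left out, 35 and 48 genes of these lists were lower, and 1 gene of G2/M was higher. That fit called 1098 of 12846 genes lower and 1198 higher, 17.9% in either direction. Summed over both lists, cell cycle transcripts came to 13844 to 16054 CPM in control and to 13909, 7917 and 10297 CPM in knockdown libraries 1, 2 and 3. Their part in the value of EZH2 was not tested.

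**Figure D4:**
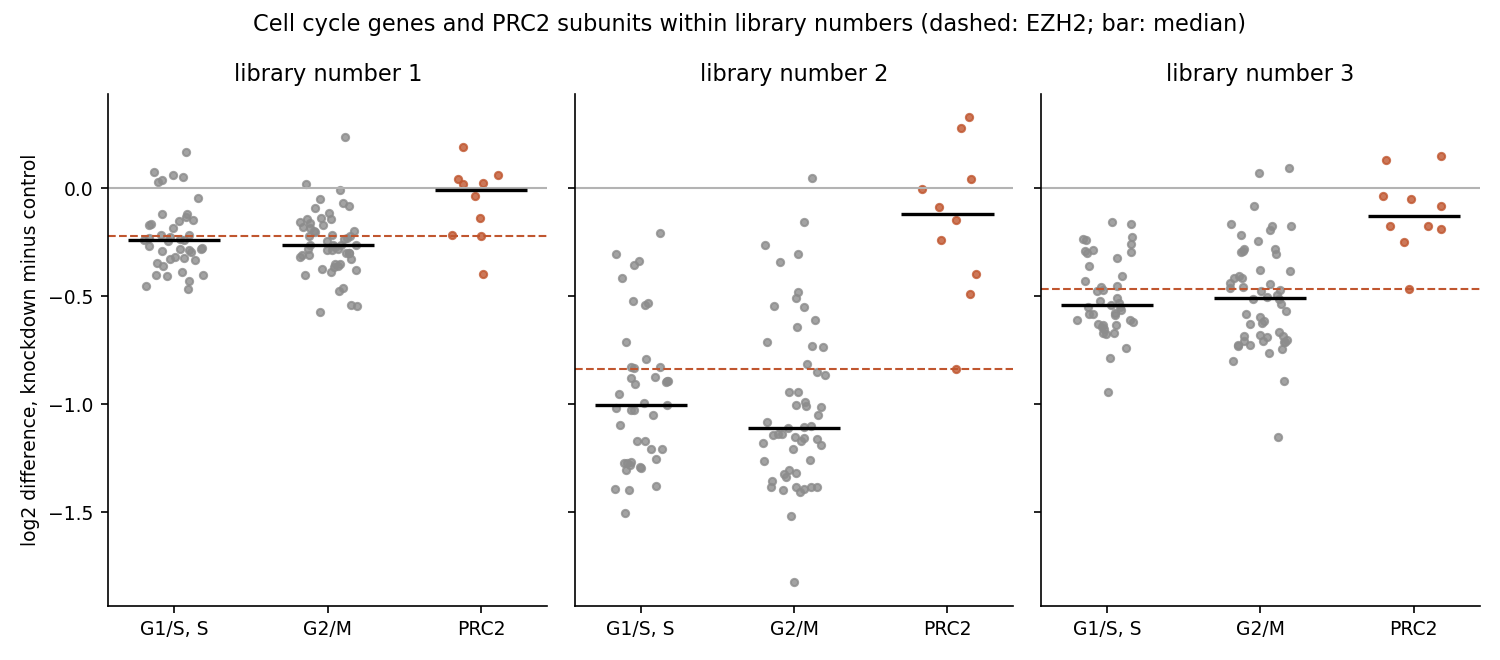
Log2 difference of knockdown minus control (vertical axis) in each library number for the G1/S and S phase genes, the G2/M genes (grey points) and the 10 PRC2 subunits (orange points), with list medians as black bars and EZH2 as a dashed line. The EZH2 line falls within the grey points in all 3 panels, at -0.22, -0.84 and -0.47, while the PRC2 medians stay between -0.13 and -0.01.

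The genes whose levels followed EZH2 most closely were found by the root mean square difference of log2 CPM, centred on each gene's own mean, over the 6 libraries and among 10437 other genes with a mean of at least 10 CPM. The nearest was RRM1, a ribonucleotide reductase subunit gene, at a distance of 0.036. HAUS6 of the augmin complex (0.038), the condensin gene NCAPD2 (0.039), KIAA0101, which encodes a PCNA-binding protein (0.040), and the transcription elongation factor gene TCEA1 (0.046) came next. RRM1 and NCAPD2 are in the cell cycle lists. RRM1 differed by -0.19, -0.88 and -0.45 in the 3 library numbers, close to the values of EZH2. No other PRC2 subunit was among the nearest genes: RBBP7 had rank 954 (0.200), EED rank 1727 (0.246) and SUZ12 rank 2567 (0.283), and EZH1 was at rank 9085 (0.525).

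Further proteins of the complex showed no call. RBBP4, the paralog of RBBP7, averaged 396.0 ± 34.1 CPM in control cells and 399.9 ± 57.3 CPM after knockdown (SD, n = 3 each; paired log2 fold change 0.01, edgeR adjusted p 0.952). LCOR, whose locus also encodes the PRC2.1 partner PALI1, was at 0.19 (edgeR adjusted p 0.147), and LCORL was at 0.01 (adjusted p 0.972). C17orf96, the older symbol of the PRC2.1 partner EPOP, was at -0.33 (edgeR adjusted p 0.180), and CXorf67, the older symbol of the PRC2 inhibitor EZHIP, was too low to be tested. The H3K27 demethylases, which remove the mark, were not called either. KDM6A had a paired estimate of -0.005 (edgeR adjusted p 0.985) and KDM6B of -0.08 (adjusted p 0.617). Without pair 2, KDM6B was at -0.24 with an edgeR adjusted p of 0.00579, in a fit that called 17.9% of all genes. Its log2 differences were -0.24, 0.22 and -0.24 in library numbers 1, 2 and 3.

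Of the 5 methyltransferases of lysine 36 of histone H3, whose mark hinders PRC2 on the same histone tail, 1 fell and 1 rose in the paired fit. Over all genes, the paired fit called 5.39% lower and 4.63% higher. WHSC1, also named NSD2, went from 431.6 ± 34.1 to 344.3 ± 65.0 CPM (n = 3 each; log2 fold change -0.34, edgeR adjusted p 0.0328). ASH1L went from 71.1 ± 3.76 to 96.6 ± 17.7 CPM (n = 3 each; log2 fold change 0.43, edgeR adjusted p 0.0469). Unpaired, WHSC1 had an edgeR adjusted p of 0.340 and ASH1L of 0.258. The groups of WHSC1 overlapped, and those of ASH1L did not. NSD1 (0.14), SETD2 (0.12) and WHSC1L1 (-0.07) were not called.

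Developmental regulators that PRC2 is known to silence in many cell types were mostly silent in both groups. Of 55 such transcription factor genes, 25 had 0 counts in all 6 libraries, and 46 were too low to be tested. These 46 together had 25, 30 and 24 counts in control libraries 1, 2 and 3, and 32, 50 and 62 counts in knockdown libraries 1, 2 and 3. In CPM the sums were 4.59, 4.64 and 3.46 in control and 6.62, 6.76 and 6.50 in knockdown libraries, so that each knockdown library was above each control library, at low counts and with no test. Among all tested genes, the groups did not overlap in 20.5%, counting either direction. Of the 9 tested genes, 4 were above 0 and 5 below in the paired fit, with a median of -0.10. The homeobox gene MSX1 was the single gene called, from 5.53 ± 0.781 to 13.0 ± 10.1 CPM (n = 3 each; paired log2 fold change 1.16, edgeR adjusted p 0.0425). Its log2 differences were 0.11, 1.89 and 0.75, and without pair 2 it was at 0.56 with an edgeR adjusted p of 0.0899. PAX5 (-0.27, edgeR adjusted p 0.0520) and FOXC1 (-0.28, adjusted p 0.0569) lay just outside the threshold, and PAX3 was at -0.13 (adjusted p 0.570). Without pair 2 the list had 2 genes called lower and 0 higher: PAX5 (-0.23, edgeR adjusted p 0.00283) and FOXC1 (-0.28, adjusted p 0.0163). That fit called 17.9% of all genes, from fewer libraries to measure the spread.

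Markers of other cell types were read beside these values. In the paired edgeR fit 2 of 6 tested neuronal markers were lower (ELAVL3 at -0.96 and NEFM at -0.89), with 0 higher. Over all genes, that fit called 5.39% lower and 4.63% higher, which is the background for the marker counts here. SYT1 (0.29, adjusted p 0.0608) and MAP2 (0.15, adjusted p 0.164) had estimates above 0, the median of the 6 was -0.02, and without pair 2 edgeR called MAP2 higher (0.13, adjusted p 0.0292). Of 5 tested astroglial markers 2 were higher (GJA1 at 0.26 and SPARCL1 at 0.52), with GFAP at 1 count in all 6 libraries together. Of 7 mesenchymal markers 2 were higher (POSTN at 0.31 and COL3A1 at 0.39). Mesenchymal markers summed to 1385 to 1728 CPM in control and to 1830, 2467 and 1738 CPM in knockdown libraries 1, 2 and 3. Most of this sum came from COL3A1 (mean 1057 CPM in control, 1393 CPM after knockdown) and POSTN (318 and 395 CPM), so it mainly restates these 2 genes. Neuronal markers summed to 870 to 988 CPM in control and 763 to 969 CPM in knockdown libraries, and astroglial markers to 565 to 623 and 637 to 691 CPM. Of the 12 neural stem cell markers, MMRN1 was higher (0.30) and PLAGL1 lower (-0.26), and the median paired log2 fold change of the list was -0.14. Of the 3 tested pluripotency markers, 0 were called. Without pair 2, edgeR also called POU5F1 lower (-0.24, adjusted p 0.0130) and the astroglial S100B higher (0.19, adjusted p 0.0295), and the neural stem cell markers had 1 lower and 2 higher. The fit without pair 2 called 17.9% of all genes, from fewer libraries to measure the spread. The part of these markers in the values of the PRC2 subunits was not tested.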

How the data were processed

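RNA sequencing libraries of 6 AF22 samples (3 control, 3 knockdown; groups and numbers from the titles) were made with a directional kit, per the labels' protocols. The authors deposited 1 table of whole read counts per library, 26485 symbols each; Trim Galore 0.6.6, STAR 2.7.10a, bedtools and hg38 are named in the submitters' processing notes, and the counting program, annotation and whether counting used strand were not given in the sources used here.

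Counts were fitted on the whole table with edgeR 4.0.16 (R 4.3.3): filterByExpr defaults (12937 genes), TMM factors, quasi-likelihood test, group as the only term, Benjamini-Hochberg adjustment, threshold 0.05. The SE is the log2 fold change over the square root of F, and log2 CPM uses a prior count of 2. The paired fit adds the library number as a block. Same-numbered control and knockdown libraries deviated together from their group means (correlations across genes 0.563, 0.467 and 0.535), so libraries of the same number were treated as pairs; this pairing comes from the data, not the labels. Alternatives used DESeq2 1.42.0, limma 3.58.1 (voom), other scaling and filters, left-out libraries or pairs, thinning to 4962745 counts, and a GC content and length trend (GENCODE 29, found for 94.9% of tested genes). The fits were also run on counts simulated from the paired fit, which does not test the pairing itself. Transcript lengths and overlaps are from GENCODE 29 (GRCh38), promoters from RefSeq (GRCh38.p14).

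Members and gene lists were chosen with earlier results of these data known. Genes named beside the members were up to 4 per list with the smallest paired p (all in lists of 2) and the 5 nearest to EZH2; BMI1 checked the labels. Genes named outside this rule (list members at 0 counts, SOX2, NES, VIM, WHSC1L1, CXorf67, GFAP) were chosen after their values were seen.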

Additional observations from a re-analysis of the deposited data

How the results depend on the processing

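The unpaired edgeR test called 0 genes and 0 members with RLE factors, total count scaling or at least 1 CPM in 3 libraries, as did unpaired limma voom. Unpaired DESeq2 called 142 genes. Unpaired edgeR called 2 genes with no filter and 0 to 665 when 1 library was left out, the 665 without knockdown library 1; members called when 1 library was left out were 0 to 1. With the replicate block 1296 genes were called, and 1335 with RLE factors, 1283 with total count scaling, 2171 with no filter, 590 in DESeq2, 1390 in limma voom, 1169 after thinning and 1677 with the GC content and length trend removed. Without pair 1, 2 or 3 the block gave 1320, 2296 and 912. EZH2 was called in all of these paired settings, with log2 fold changes of -0.508 (block), -0.500 (RLE), -0.525 (total count), -0.508 (no filter), -0.502 (DESeq2), -0.507 (voom), -0.418 (thinning), -0.482 (trend removed), and -0.643, -0.359 and -0.529 without pairs 1, 2 and 3. It ranged from -0.694 to -0.311 with 1 library left out, unpaired. Members called were 2 (EZH2 and PHF19) with total count, no filter, voom or the trend removed, 3 without pair 2, and 1 in the other paired settings. The split of higher and lower genes was 599 and 697 with the block, 494 and 789 with total count scaling and 897 and 780 with the trend removed. With 1 library left out, small estimates changed sign: EZH1 ran from -0.021 to 0.270, SUZ12 from -0.208 to 0.0056, JARID2 from -0.092 to 0.012 and PHF1 from -0.035 to 0.142 (-0.019 in the paired fit without pair 3). EED, MTF2, PHF19, RBBP7, AEBP2 and the EZH2 to EZH1 ratio kept their direction in each setting run. The cause of these changes was not tested. Members had 139 to 1683 counts a library, and the smallest difference that could have been detected was not computed.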
